A study of Mus musculus with 9 samples.

Results

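The genes described here are 10 that encode parts of the Z disc and M band of the muscle sarcomere, helpers of its assembly, and desmin: Ttn, Actn2, Tcap, Ldb3, Mypn, Myom1, Myom2, Klhl41, Smyd1 and Des. They were chosen by symbol, and all 10 were found once among the 47729 genes in the files. They were read by RNA-seq in myoblasts, the dividing precursors of muscle fibres, from skeletal muscle of FVB/N mice. The labels name 3 cell populations with 3 libraries each: SRCs of cycle 3 (SRC3), FRCs of cycle 1 (FRC1) and the parental cells (PAR). SRCs come only from cycle 3 and FRCs only from cycle 1, so population and cycle number cannot be told apart in SRC3 over FRC1. SRC3 and FRC1 are reserve cells, single-nucleus cells that stay undifferentiated while their neighbours fuse into myotubes. Per the study's design text these were passaged before harvest while kept proliferating, so the cells measured are proliferating cultures and not freshly isolated reserve cells. Both reserve groups were at 2 passages after isolation, and no passage number is given for PAR. The labels do not spell out FRC and SRC, and give no age, genetic change or drug for any group. Whether the 3 replicates of a group were separate cultures is not stated, so the p-values rest on a spread between libraries that could be technical.

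A sarcomere is the contractile unit of striated muscle. Z discs mark its ends and anchor the thin actin filaments, the M band holds the thick myosin filaments at the centre, and the giant protein titin runs from the Z disc to the M band. When myoblasts differentiate, alpha-actinin and titin are among the first proteins to gather into premyofibrils. Other Z disc and M band proteins, chaperones and turnover factors then build the regular striated array. Desmin, a muscle intermediate filament protein, ties neighbouring Z discs to each other and to the cell membrane, and unlike most sarcomere genes it is already strongly expressed in myoblasts.

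The libraries held 13012996 to 14336279 reads in genes. Levels are CPM, a gene's count relative to the depth of its library, scaled by TMM, and 3 reads in 1 library correspond to 0.209 to 0.231 CPM. Of all genes, 12540 had enough reads to be tested. Unless stated otherwise, p-values come from edgeR's quasi-likelihood test and are adjusted by Benjamini-Hochberg over all tested genes, with a threshold of 0.05. The cells carried the myoblast markers Myod1, at 539.6 ± 18.8 CPM in SRC3, 770.8 ± 15.9 in FRC1 and 776.5 ± 15.1 in PAR (SD, n = 3), Pax7 and Cdh15, while Myf5 had 1 read in all 9 libraries. The summed level of 10 markers of differentiating muscle cells, among them Myog, Acta1 and Myh3, was 11.93 to 28.62 CPM in SRC3 libraries, 106.2 to 125.1 CPM in FRC1 and 11.03 to 14.63 CPM in PAR. Of these 10, 8 had their highest mean in FRC1, while the fusion genes Tmem8c (myomaker; 1.159 ± 0.281 CPM in SRC3, 3.56 ± 0.768 in FRC1 and 5.001 ± 0.727 in PAR) and Gm7325 (myomixer; 0.5238 ± 0.256, 0.7725 ± 0.0676 and 1.253 ± 0.0937 in the same order) had theirs in PAR. In bulk RNA, a change in the share of cells that express a gene and a change in the RNA per cell cannot be told apart.

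Promoter sequences from RefSeq (GRCm38.p6) were available for 8 of the 10 genes. The 250 bases before the annotated start are shown for 4 genes with contrasting behaviour. Actn2 and Klhl41 were near 0 in PAR and higher in FRC1, the Ttn groups overlapped, and Des was abundant throughout. Capitals mark E-boxes (CANNTG, the motif bound by Myod1, myogenin and other bHLH factors, which reads the same on both strands), matches to the MEF2 motif and matches to the CArG box bound by serum response factor. Strands and positions are chr13:12340733-12340982, minus strand, for Actn2, chr2:69669870-69670119, plus strand, for Klhl41, chr2:76982548-76982797, minus strand, for Ttn, and chr1:75360042-75360291, plus strand, for Des. Each is written 5′ to 3′ on the strand of its gene. Starts are those of RefSeq, and the gene spans given with each gene below are those of GENCODE. The RefSeq start of Ttn, Mypn and Klhl41 is the start of that span, that of Ldb3 lies 1 base and that of Actn2 28 bases inside it, and that of Des lies 37 bases before it. The RefSeq starts of Myom1 and Smyd1 lie 16924 and 59952 bases inside the GENCODE spans, so these 2 windows are not at the outer start of the gene.

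Actn2: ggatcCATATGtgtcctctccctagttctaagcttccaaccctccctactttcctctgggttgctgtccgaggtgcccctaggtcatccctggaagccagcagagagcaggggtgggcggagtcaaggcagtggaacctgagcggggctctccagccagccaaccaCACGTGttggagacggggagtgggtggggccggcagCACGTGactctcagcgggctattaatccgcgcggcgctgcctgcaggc

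Klhl41: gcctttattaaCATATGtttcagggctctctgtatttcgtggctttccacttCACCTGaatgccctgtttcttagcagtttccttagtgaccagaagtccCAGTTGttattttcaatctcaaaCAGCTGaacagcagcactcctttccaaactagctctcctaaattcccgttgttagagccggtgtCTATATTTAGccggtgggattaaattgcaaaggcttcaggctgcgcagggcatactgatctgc

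Ttn: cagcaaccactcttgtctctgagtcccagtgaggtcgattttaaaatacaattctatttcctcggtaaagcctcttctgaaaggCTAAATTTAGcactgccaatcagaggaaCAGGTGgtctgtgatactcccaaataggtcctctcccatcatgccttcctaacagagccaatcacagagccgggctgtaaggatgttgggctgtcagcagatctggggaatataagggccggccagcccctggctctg

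Des: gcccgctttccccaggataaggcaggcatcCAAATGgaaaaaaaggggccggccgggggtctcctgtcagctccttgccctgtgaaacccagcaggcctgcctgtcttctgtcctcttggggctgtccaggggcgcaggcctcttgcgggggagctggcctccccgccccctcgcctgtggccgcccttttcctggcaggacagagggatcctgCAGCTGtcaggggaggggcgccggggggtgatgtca

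An E-box lay in 6 of the 8 promoters, against 66.2% of the 32851 promoters in the table, so this motif alone sets the genes little apart. Klhl41 held 4 E-boxes, among them CAGCTG and CACCTG, and a MEF2 match 63 bases before its start. Ttn held a CAGGTG E-box at 138 bases and a MEF2 match at 166 bases before its start. MEF2 matches occurred in these 2 of 8 promoters and in 2.92% of all promoters. Of the 3 E-boxes of Actn2, the matches at 84 and 48 bases read CACGTG. Des held CAGCTG 36 bases before its RefSeq start, a motif present in 13% of all promoters. CArG matches occurred in Ldb3, 35 bases before the start, and in Myom1, 99 bases before its inner RefSeq start, against 1.47% of all promoters. A match describes letters only and shows no binding. No MEF2 or CArG letters were found in these windows of Actn2, Des, Mypn and Smyd1.

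**Figure D1:**
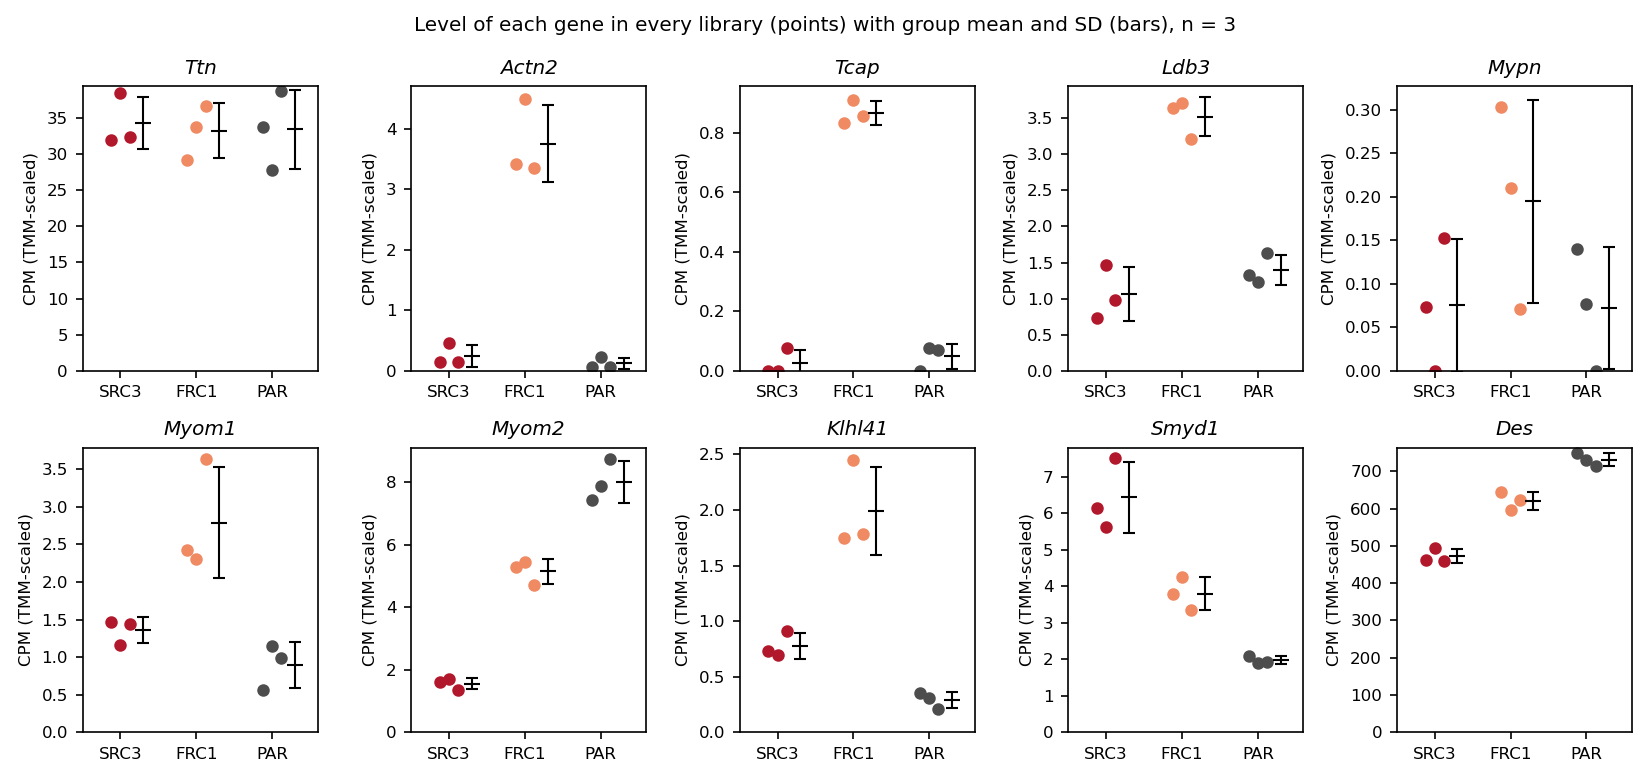
CPM of each of the 10 genes in every library. Points are libraries, and the bars beside them are the group mean and SD (n = 3), with SRC3 at left, FRC1 in the middle and PAR at right. Actn2, Tcap, Ldb3, Myom1 and Klhl41 peaked in FRC1, Smyd1 peaked in SRC3, Myom2 and Des peaked in PAR, and the groups of Ttn and Mypn overlapped.

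Titin is encoded by Ttn (ENSMUSG00000051747, chromosome 2, 76703980 to 76982547, GRCm38), whose annotated exons cover 116825 bases. Ttn stood at 31.97, 38.41 and 32.38 CPM in the SRC3 libraries, 29.1, 33.73 and 36.63 CPM in FRC1, and 33.67, 27.8 and 38.66 CPM in PAR. The 3 groups overlapped. The fold change was 1.02 in SRC3 over PAR (95% interval 0.84 to 1.25, adjusted p = 0.85), 0.993 in FRC1 over PAR (0.815 to 1.21, adjusted p = 0.96) and 1.03 in SRC3 over FRC1 (0.846 to 1.26, adjusted p = 0.81). With 1360 to 1388 reads per group, these intervals leave out changes larger than 1.26-fold in either direction. Per kilobase of exon, however, Ttn was low in all groups, at 0.293 ± 0.0309 RPKM in SRC3, 0.284 ± 0.0325 in FRC1 and 0.286 ± 0.0466 in PAR (SD, n = 3).

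The Z disc genes Actn2, Tcap and Ldb3 were all highest in FRC1. Actn2 (ENSMUSG00000052374, chromosome 13, 12269426 to 12340760), the gene of the muscle alpha-actinin that crosslinks actin filaments at the Z disc, had 2, 6 and 2 reads in the SRC3 libraries, 45, 64 and 47 in FRC1, and 1, 3 and 1 in PAR. All FRC1 libraries lay above all others. As levels, these were 0.2538 ± 0.181 CPM in SRC3, 3.746 ± 0.635 CPM in FRC1 and 0.1236 ± 0.0919 CPM in PAR. Actn2 had enough reads to be tested only through FRC1, so that choice favoured a difference in its tests against FRC1. Actn2 rose 28.9-fold in FRC1 over PAR (log2 fold change 4.86, SE 0.42; adjusted p = 1.3e-07). Without PAR replicate 2, which held 3 of the 5 PAR reads, the rise was 47.1-fold. It was 14.4-fold lower in SRC3 than in FRC1 (log2 fold change -3.85, SE 0.37; adjusted p = 8.5e-08), or 23.6-fold without SRC3 replicate 2, which held 6 of the 10 SRC3 reads. Between SRC3 and PAR the ratio of 10 to 5 reads, scaled to depth, was 2.1 with a 95% counting interval of 0.653 to 7.82 (edgeR adjusted p = 0.32). It was 1.25 without SRC3 replicate 2 (0.248 to 5.81) and 3.59 without PAR replicate 2 (0.765 to 33.7).

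Tcap (ENSMUSG00000007877, chromosome 11, 98383811 to 98384953) encodes telethonin, the small protein that caps the titin N termini at the Z disc. It had 0, 0 and 1 reads in the SRC3 libraries, 11, 13 and 12 in FRC1, and 0, 1 and 1 in PAR. The FRC1 libraries agreed closely with each other, at 0.8336 to 0.9098 CPM, and all stood above the other 6. Tcap, too, had enough reads to be tested only through FRC1, which favoured a difference in its tests against FRC1. The ratio of reads in FRC1 over PAR was 18.1 (95% counting interval 4.65 to 155; edgeR adjusted p = 0.00022), and 11.8 without PAR replicate 1, which had no read (3.05 to 102). SRC3 was lower than FRC1 by a ratio of 34.4 (counting interval 5.8 to 1400; edgeR adjusted p = 6.9e-05), or 22.6 without SRC3 replicate 1 (3.81 to 918). Without SRC3 replicate 3, which held the 1 SRC3 read, it was at least 7.72-fold lower, against a floor of 3 reads over the group. Such intervals and floors cover counting error only. In SRC3 and PAR together the gene had 3 reads, so that these groups could not be told apart at this depth.

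Ldb3 (ENSMUSG00000021798, chromosome 14, 34526603 to 34588682), which encodes the PDZ and LIM domain protein ZASP or Cypher that binds alpha-actinin, was detected in every library. It stood at 0.7333, 1.466 and 0.9882 CPM in SRC3, 3.638, 3.709 and 3.207 CPM in FRC1, and 1.33, 1.225 and 1.635 CPM in PAR. FRC1 did not overlap the other groups, which overlapped each other. Ldb3 rose 2.5-fold in FRC1 over PAR (log2 fold change 1.32, SE 0.24; adjusted p = 0.00038) and was 3.31-fold lower in SRC3 than in FRC1 (adjusted p = 2.4e-05). SRC3 over PAR gave a log2 fold change of -0.4 (95% interval -1.14 to 0.34; adjusted p = 0.31). Mypn (ENSMUSG00000020067, chromosome 10, 63115795 to 63203952), the gene of myopalladin, a Z disc protein that binds alpha-actinin and nebulin, had 3 reads over SRC3, 8 over FRC1 and 3 over PAR. It did not pass the filter on low counts, and no difference was detectable at this depth. With no filter, the edgeR adjusted p was 0.51 for FRC1 over PAR, 1 for SRC3 over PAR and 0.51 for SRC3 over FRC1.

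The 2 myomesins, which crosslink myosin and titin in the M band, moved in opposite directions in FRC1. Myom1 (ENSMUSG00000024049, chromosome 17, 71002633 to 71126856) is the myomesin found in all striated muscle. It had 1.467, 1.157 and 1.444 CPM in SRC3, 2.425, 2.309 and 3.635 CPM in FRC1, and 0.5601, 1.149 and 0.995 CPM in PAR. It rose 3.1-fold in FRC1 over PAR (log2 fold change 1.63, SE 0.29; adjusted p = 0.00037) and was 2.05-fold lower in SRC3 than in FRC1 (log2 fold change -1.04, SE 0.27; adjusted p = 0.0059). The second call was lost without FRC1 replicate 3, the highest library (log2 fold change -0.79, adjusted p = 0.06). SRC3 lay just above PAR in all libraries, with a log2 fold change of 0.6 (95% interval -0.23 to 1.43; adjusted p = 0.18). The exons of Myom1 share 207 bases with Myl12a on the opposite strand, a gene with 18407, 21677 and 21220 reads over SRC3, FRC1 and PAR. The strand setting of the counting is not given, and the part of that overlap in the Myom1 values was not tested.

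Myom2 (ENSMUSG00000031461, chromosome 8, 15057653 to 15133541), also called M-protein and typical of fast fibres and heart, was the most abundant gene per kilobase after Des in PAR. It stood at 1.613, 1.697 and 1.368 CPM in SRC3, 5.305, 5.459 and 4.704 CPM in FRC1, and 7.421, 7.887 and 8.742 CPM in PAR. No groups overlapped. It fell 5.12-fold in SRC3 over PAR (log2 fold change -2.36, SE 0.18; adjusted p = 2.2e-09) and 1.55-fold in FRC1 over PAR (log2 fold change -0.64, SE 0.14; adjusted p = 0.0024), and was 3.29-fold lower in SRC3 than in FRC1 (adjusted p = 6.3e-07). Of the reads of Myom1 and Myom2 together, Myom1 held 40.5 to 51.4% in the SRC3 libraries, 29.7 to 43.6% in FRC1 and 7.02 to 12.7% in PAR. The summed level of both genes was 2.915 ± 0.144 CPM in SRC3, 7.945 ± 0.341 CPM in FRC1 and 8.918 ± 0.884 CPM in PAR.

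**Figure D2:**
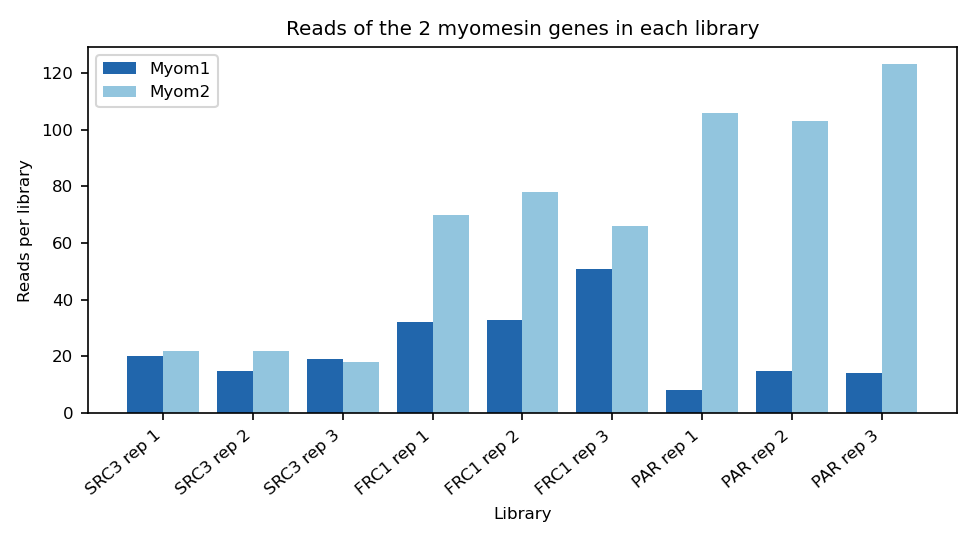
Reads of Myom1 (dark bars) and Myom2 (light bars) in each of the 9 libraries, with the number of reads on the vertical axis from 0. In PAR, Myom2 held 103 to 123 reads and Myom1 8 to 15, while in SRC3 both held 15 to 22.

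The 2 assembly genes differed in where they peaked. Klhl41 (ENSMUSG00000075307, chromosome 2, 69670120 to 69684230) encodes a kelch protein that stabilises nebulin and is mutated in nemaline myopathy. It had 0.7333, 0.6942 and 0.9121 CPM in SRC3, 1.743, 2.449 and 1.782 CPM in FRC1, and 0.35, 0.3063 and 0.2132 CPM in PAR. The 3 groups did not overlap. Klhl41 had enough reads to be tested only through FRC1, which favoured a difference in its tests against FRC1. It rose 6.71-fold in FRC1 over PAR (log2 fold change 2.75, SE 0.36; adjusted p = 1.4e-05) and was 2.54-fold lower in SRC3 than in FRC1 (adjusted p = 0.0014). In SRC3 over PAR it rose 2.64-fold on 31 against 12 reads (log2 fold change 1.4, SE 0.44; adjusted p = 0.017). That last call was lost without PAR replicate 3 (adjusted p = 0.071) or SRC3 replicate 3 (adjusted p = 0.059) and with DESeq2 (adjusted p = 0.051).

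Smyd1 (ENSMUSG00000055027, chromosome 6, 71213940 to 71322233), the gene of a muscle-specific methyltransferase that works with chaperones in myosin folding and thick filament assembly, followed another order. It stood at 6.16, 5.631 and 7.525 CPM in SRC3, 3.789, 4.269 and 3.35 CPM in FRC1, and 2.1, 1.914 and 1.919 CPM in PAR, with no overlap between groups. Smyd1 rose 3.24-fold in SRC3 over PAR (log2 fold change 1.7, SE 0.19; adjusted p = 5e-07) and 1.92-fold in FRC1 over PAR (log2 fold change 0.94, SE 0.2; adjusted p = 0.0018). It was 1.69-fold higher in SRC3 than in FRC1 (log2 fold change 0.76, SE 0.17; adjusted p = 0.0014). It was the only one of the 10 called higher in SRC3 than in FRC1. The gene Krcc1, which runs through the same region on the opposite strand, shares no exon bases with it.

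Des (ENSMUSG00000026208, chromosome 1, 75360329 to 75368579) was the most abundant of the 10 in every library and held 90.9 to 92.7% of their summed CPM in the reserve cells and 93.2 to 94.7% in PAR. Its levels were 462.2, 493.7 and 460.4 CPM in SRC3, 644.7, 595.5 and 622.5 CPM in FRC1, and 748.7, 729.6 and 714.6 CPM in PAR. The groups did not overlap, and each fall was small. Des fell 1.55-fold in SRC3 over PAR (log2 fold change -0.63, SE 0.046; adjusted p = 1.2e-09) and 1.18-fold in FRC1 over PAR (log2 fold change -0.24, SE 0.046; adjusted p = 0.00069). It was 1.32-fold lower in SRC3 than in FRC1 (adjusted p = 1.1e-06). With RLE size factors or library sizes alone, the FRC1 log2 fold change was -0.24 and -0.23, so that the direction did not turn with either scaling.

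**Figure D3:**
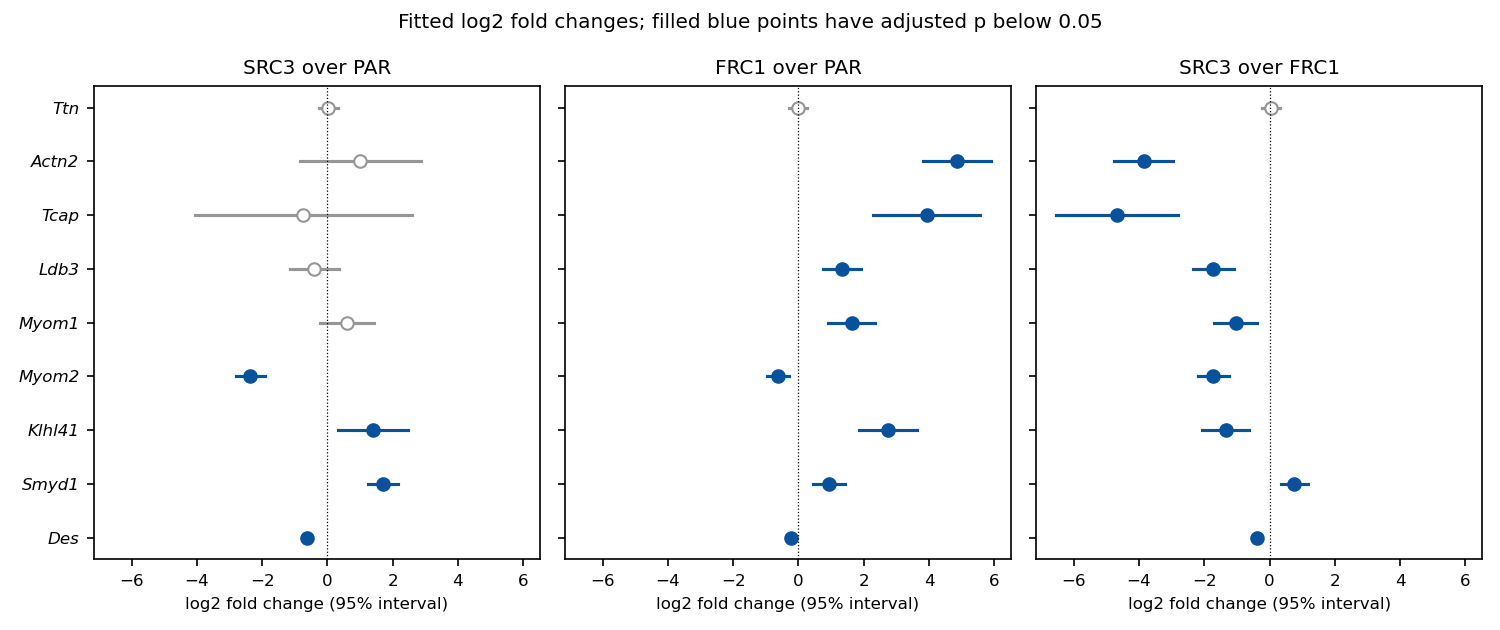
Fitted log2 fold changes with 95% intervals for the 9 tested genes in SRC3 over PAR, FRC1 over PAR and SRC3 over FRC1. Filled blue points have an adjusted p below 0.05. Ttn lies at 0 in all 3 panels, and Actn2 ranges between 4.86 in FRC1 over PAR and -3.85 in SRC3 over FRC1. The Tcap values rest on 1 read over SRC3 and 2 over PAR. Actn2, Tcap and Klhl41 had enough reads to be tested only through FRC1, which favoured a difference from it.

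Counted together, 9 of the 10 genes were tested. In SRC3 over PAR, 4 were called, where 37.9% of all tested genes were. Klhl41 and Smyd1 rose and Myom2 and Des fell, against 17.8% and 20.2% of all tested genes in these directions. In FRC1 over PAR, 8 were called, where 28.3% of all tested genes were. Actn2, Tcap, Ldb3, Myom1, Klhl41 and Smyd1 rose and Myom2 and Des fell, against 13.6% and 14.7%. In SRC3 over FRC1, 8 were called, where 33.5% of all tested genes were. Smyd1 was higher and the other 7 were lower, against 15.5% and 18%. The libraries of the groups did not overlap for 5 of the 9 genes in SRC3 over PAR, 8 in FRC1 over PAR and 8 in SRC3 over FRC1, where 49.1%, 44.2% and 42.8% of all tested genes did not. Actn2, Tcap and Klhl41 reached the count filter only through the FRC1 libraries. Their selection favoured a higher level in FRC1, and counts over the 9 are no measure of how often such genes change. Of the 6 that passed with any group left out, 3 rose and 2 fell in FRC1 over PAR, with a median log2 fold change of 0.46. In SRC3 over PAR 1 rose and 2 fell (median -0.18), and in SRC3 over FRC1 1 was higher and 4 were lower (median -0.72). The median of all tested genes was 0.01 in SRC3 over PAR and 0 in the other comparisons. The comparisons share libraries: PAR serves 2 of them and each reserve population serves 2.

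Per kilobase of exon, Des led in every group, at 126 ± 4.99 RPKM in SRC3, 165 ± 6.56 in FRC1 and 195 ± 4.55 in PAR (SD, n = 3). No other gene exceeded 1.66 RPKM in any library. In SRC3, Smyd1 came next at 1.42 ± 0.215 RPKM, above Klhl41 (0.308 ± 0.0459) and Ttn (0.293 ± 0.0309), which overlapped. In FRC1, Actn2 (0.987 ± 0.167), Tcap (0.914 ± 0.0414), Smyd1 (0.836 ± 0.101) and Klhl41 (0.787 ± 0.157) followed, and neighbours in this order overlapped. In PAR, Myom2 came second at 0.906 ± 0.0757 RPKM followed by Smyd1 at 0.435 ± 0.0233, with no overlap, while Tcap, Actn2 and Mypn were at most 0.0808 RPKM in any library. Relative to Ttn at 0.284 RPKM, Actn2 and Tcap were thus higher per kilobase in FRC1, and both were lower than Ttn in SRC3 and PAR. With the length of the longest transcript in place of all exons, Smyd1 (1.13 RPKM) and Myom2 (1.02) moved above Tcap in FRC1.

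**Figure D4:**
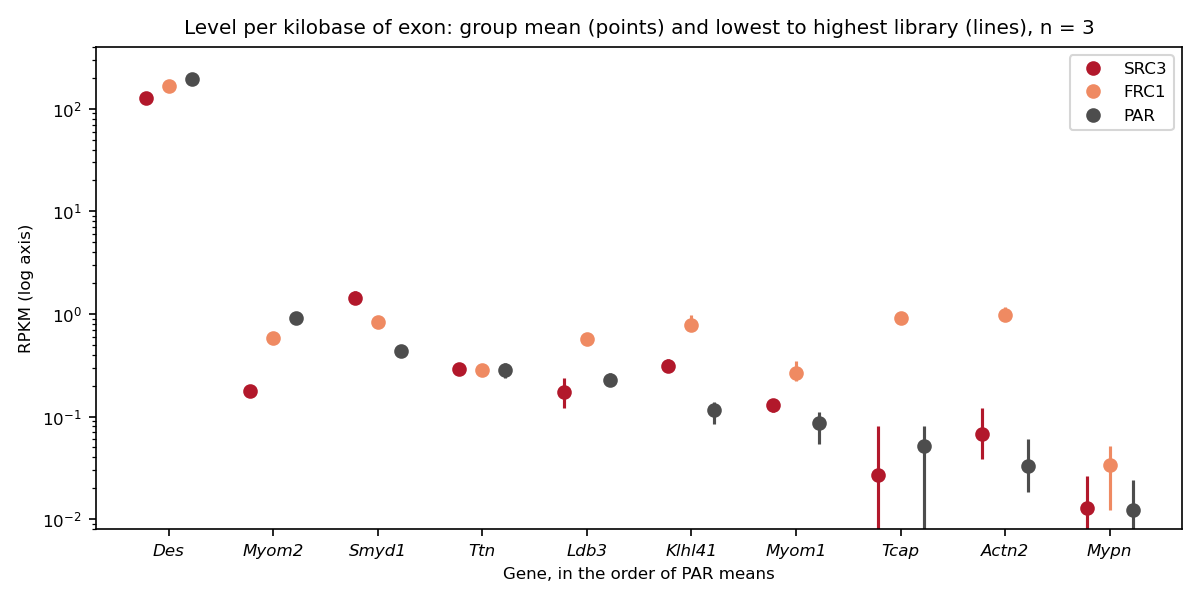
RPKM, the level per kilobase of exon, on a log axis, with genes in the order of their PAR means. Points are group means and lines span the lowest to the highest of 3 libraries; lines that reach the lower edge include a library at 0. Des stands at 126 to 195 RPKM, and Tcap and Actn2 reach 0.914 and 0.987 RPKM in FRC1.

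The genes whose profiles over the 9 libraries were most like each of these were found by distance between log2 CPM values scaled to unit SD, where 0 is the same profile and 5.66 its mirror image. Nearest to Actn2 were Ckap4 (distance 0.41), Chst2 (0.43) and Mb, the myoglobin gene (0.58). Mb stood at 0.3799 ± 0.281 CPM in SRC3, 4.325 ± 1.29 in FRC1 and 0.07255 ± 0.00352 in PAR, a range like that of Actn2. Ckap4, at 362.7, 444.1 and 351.5 CPM in SRC3, FRC1 and PAR, shared the peak in FRC1 but not the range. With a prior count of 0.5 Mb was no longer among the 3 nearest. Nearest to Myom2 was Dio2, a thyroid hormone activating deiodinase gene (0.18), at 3.928 ± 0.757 CPM in SRC3, 17.2 ± 1.18 in FRC1 and 31.3 ± 2.54 in PAR. Nearest to Des were Cd82 (0.24) and the cyclin gene Ccnd2 (0.26), and nearest to Smyd1 was Padi2 (0.45), at 42.02 ± 1.01 CPM in SRC3, 29.85 ± 2.34 in FRC1 and 18.76 ± 1.37 in PAR. Ttn had no near neighbour, the closest being Gm28229 at 1.21.

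Other genes listed with the Z disc moved in both directions. The list was broad and also held abundant genes such as Actn1, Actn4 and Jph2. These stood at 647.3 ± 98.7, 1081 ± 121 and 157.1 ± 15.2 CPM in SRC3. Of 24 tested, 4 rose and 11 fell in SRC3 over PAR, 11 rose and 3 fell in FRC1 over PAR, and 3 were higher and 18 lower in SRC3 than in FRC1. The called shares of the list were 62.5%, 58.3% and 87.5%, against 37.9%, 28.3% and 33.5% of all tested genes. This list and those below were chosen with earlier results of these data known. Their shares are therefore no measure of how often such genes change. The median log2 fold changes were -0.22, 0.22 and -0.48. Smpx, Csrp3 and Pdlim3 reached the count filter only through FRC1, so their selection favoured a higher level there. Of the 21 that passed with any group left out, 3 rose and 11 fell in SRC3 over PAR, 8 rose and 3 fell in FRC1 over PAR, and 3 were higher and 15 lower in SRC3 than in FRC1, with medians of -0.25, 0.07 and -0.42. Smpx, a small protein gene of striated muscle, had 14 reads over SRC3, 86 over FRC1 and 2 over PAR, and rose in FRC1 (edgeR adjusted p = 1.6e-06). Csrp3, the gene of muscle LIM protein, rose 6.24-fold in FRC1 over PAR to 1.257 ± 0.353 CPM, and Pdlim3, a LIM protein gene of the alpha-actinin partners, rose 3.72-fold to 2.089 ± 0.437 CPM. The small heat shock protein gene Cryab, a chaperone of desmin, fell 1.54-fold in FRC1 over PAR to 34.04 ± 2.16 CPM. In SRC3 over PAR, Fhl1 fell 27.2-fold to 5.323 ± 2.87 CPM, against 144.7 ± 6.7 CPM in PAR, and the nebulin relative Nebl fell 7.52-fold to 0.5513 ± 0.146 CPM. Xirp1, an actin-binding repeat protein gene, rose 5.78-fold in SRC3 over PAR to 29.45 ± 2.68 CPM.

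Of 10 tested M band and titin-associated genes, 2 rose and 1 fell in SRC3 over PAR, 4 rose and 3 fell in FRC1 over PAR, and 4 were higher and 5 lower in SRC3 than in FRC1. These calls were 30%, 70% and 90% of the list, against 37.9%, 28.3% and 33.5% of all tested genes. The first share lay below that of all genes. A further myomesin gene, Myom3, had 14 reads over SRC3, 88 over FRC1 and 7 over PAR. It rose 12-fold in FRC1 over PAR (adjusted p = 7.4e-05). Myom3 and 1 more of the 10 reached the count filter only through FRC1. Of the 8 that passed with any group left out, 2 rose and 1 fell in SRC3 over PAR, 2 rose and 3 fell in FRC1 over PAR, and 4 were higher and 3 lower in SRC3 than in FRC1. Trim54, a MuRF ubiquitin ligase gene whose product binds titin and microtubules, rose 4.27-fold in SRC3 over PAR to 62.98 ± 1.08 CPM, against 14.77 ± 0.851 CPM in PAR (log2 fold change 2.09, SE 0.083; adjusted p = 9e-14). In FRC1 it fell 1.51-fold to 9.787 ± 1.36 CPM, and it was 6.42-fold higher in SRC3 than in FRC1. Trim55, its relative, was 1.95-fold higher in SRC3 than in FRC1, at 30.45 ± 5.02 CPM in SRC3 and 15.63 ± 1.99 CPM in FRC1. With no filter on low counts, 8 of 16 of these genes rose and 3 fell in FRC1 over PAR. Of all 22254 genes in that fit, 1746 rose and 1947 fell. The genes which that setting added had too few reads for the count filter.

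Of 19 tested assembly factors, 1 rose and 7 fell in SRC3 over PAR, 4 rose and 1 fell in FRC1 over PAR, and 1 was higher and 8 lower in SRC3 than in FRC1. Called were 42.1%, 26.3% and 47.4% of the list, against 37.9%, 28.3% and 33.5% of all tested genes, so the first 2 shares were near the background. Lmod3, which encodes the actin filament nucleator leiomodin 3, rose 5.72-fold in FRC1 over PAR to 1.548 ± 0.648 CPM, and reached the count filter only through FRC1. Another of the 19 reached it only through SRC3. Of the 17 that passed with any group left out, 1 rose and 7 fell in SRC3 over PAR. In FRC1 over PAR 3 rose and 1 fell, and in SRC3 over FRC1, 1 was higher and 7 were lower. The formin gene Fhod3 fell 2.32-fold in SRC3 over PAR to 7.683 ± 1.46 CPM. The 5 calls in FRC1 became 2 without FRC1 replicate 3 and 3 without any PAR replicate. The 8 calls in SRC3 over PAR became 5 without PAR replicate 2, and the 9 in SRC3 over FRC1 became 5 without SRC3 replicate 1.

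Of 12 tested genes of other intermediate filaments and of the links between filaments and membrane, 3 rose and 4 fell in SRC3 over PAR, 0 rose and 3 fell in FRC1 over PAR, and 3 were higher and 2 lower in SRC3 than in FRC1. Called were 58.3%, 25% and 41.7% of the list, against 37.9%, 28.3% and 33.5% of all tested genes, on only 12 genes. Of the 12, 1 failed the count filter when FRC1 or PAR was left out. Of the 11 that passed with any group left out, 3 rose and 3 fell in SRC3 over PAR. In FRC1 over PAR 0 rose and 3 fell, and in SRC3 over FRC1, 3 were higher and 1 was lower. Vim, the gene of vimentin, a major intermediate filament protein of myoblasts, fell 1.17-fold in FRC1 over PAR to 5445 ± 143 CPM. Nes, the nestin gene, fell 1.29-fold in SRC3 over PAR to 887.5 ± 110 CPM, and Murc, a caveola component of muscle, rose 2.58-fold to 22.82 ± 4.67 CPM. The 3 calls in FRC1 became 1 without PAR replicate 2, FRC1 replicate 2 or FRC1 replicate 3, 6 without FRC1 replicate 1 or SRC3 replicate 2, and 5 without SRC3 replicate 3. With the replicate number as a block they were also 6.

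Of 20 tested regulators of muscle genes, 6 rose and 7 fell in SRC3 over PAR, 5 rose and 7 fell in FRC1 over PAR, and 6 were higher and 8 lower in SRC3 than in FRC1. These calls were 65%, 60% and 70% of the list, against 37.9%, 28.3% and 33.5% of all tested genes. All 20 passed the filter with any group left out. Myog stood at 1.615 ± 0.563 CPM in SRC3, 8.974 ± 1.58 CPM in FRC1 and 0.5738 ± 0.194 CPM in PAR. Its peak lay in FRC1, as did those of Actn2 and Klhl41. Mef2c stood at 3.941 ± 1.53 CPM in SRC3, 6.636 ± 0.433 CPM in FRC1 and 0.5009 ± 0.241 CPM in PAR. The more abundant Mef2a went the other way, at 192.7 ± 21.6 CPM in SRC3, 125.4 ± 7.34 in FRC1 and 192.7 ± 14.3 in PAR. It fell 1.54-fold in FRC1 over PAR (adjusted p = 2.8e-05). Myod1 was among the 7 falls in SRC3 over PAR, at 1.44-fold (adjusted p = 6.9e-09). Srf, the gene of the factor that binds CArG boxes, rose 1.37-fold in FRC1 over PAR to 125.2 ± 2.69 CPM (adjusted p = 0.00032). The class II histone deacetylase gene Hdac5, whose product represses MEF2 factors, rose 1.81-fold in SRC3 over PAR to 76.7 ± 0.812 CPM (adjusted p = 1.2e-09). The 12 calls in FRC1 became 7 without PAR replicate 3 or FRC1 replicate 3.

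**Figure D5:**
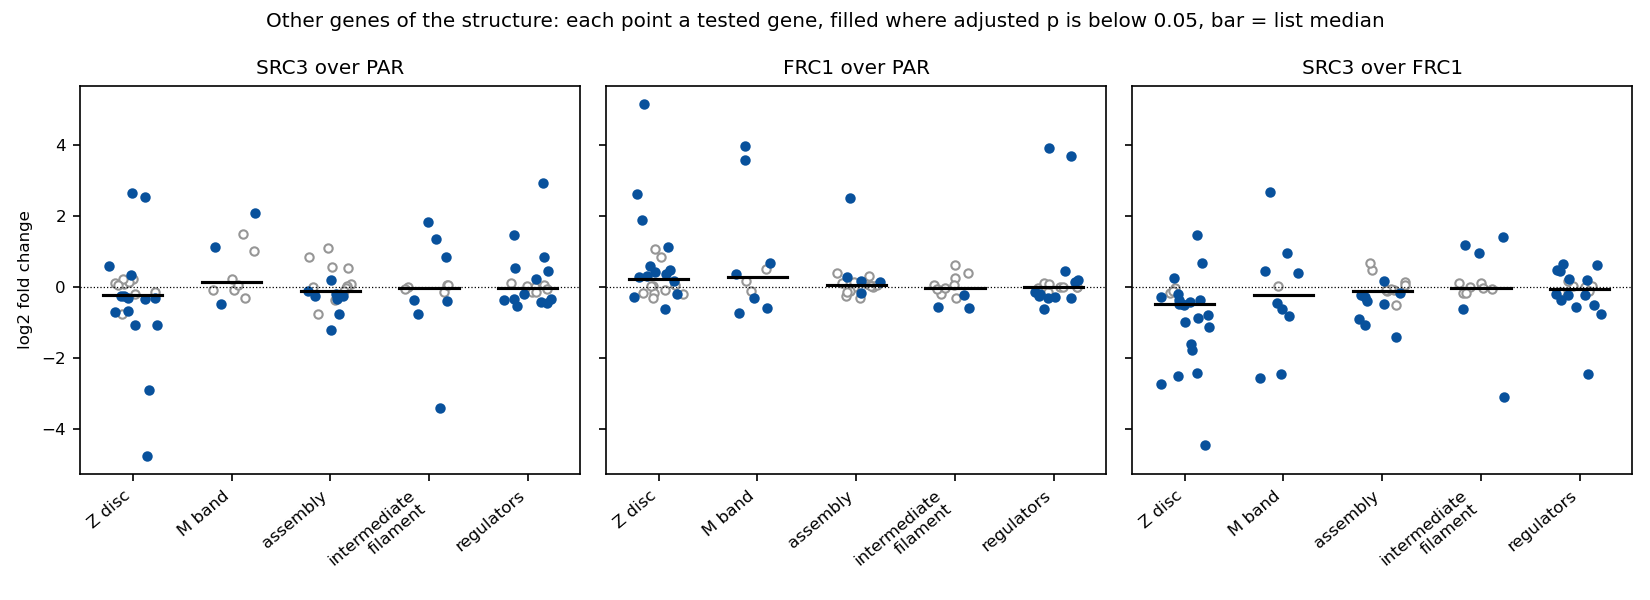
Log2 fold changes of the other Z disc, M band, assembly, intermediate filament and regulator genes in SRC3 over PAR, FRC1 over PAR and SRC3 over FRC1. Each point is a tested gene, filled where its adjusted p is below 0.05, and the bar is the list median. Of 24 Z disc genes, 18 were called lower in SRC3 than in FRC1, where 18% of all tested genes were. Of the 21 Z disc genes that passed the filter with any group left out, 15 were. The lists were chosen with earlier results of these data known, so such shares do not measure how often such genes change.

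Several of the 10 genes are also expressed outside skeletal muscle, so markers of other cells were read beside them. Of 11 cardiac markers, Nkx2-5, Tbx5, Hand2 and Nppa had 0 reads in all libraries, and the summed level of the list was 7.829 to 11.26 CPM in SRC3, 22.13 to 27.43 in FRC1 and 8.742 to 10.22 in PAR. Most of the FRC1 sum was Myl4, at 14.19 ± 2.01 CPM, and Gata4, at 8.133 ± 0.301 CPM; Myl4 is also expressed in developing skeletal muscle. The 9 smooth muscle markers summed to 94.86 to 126.3 CPM in SRC3, 483.3 to 647.7 in FRC1 and 295.6 to 332 in PAR, through Acta2, Tagln, Smtn and Synpo2. The defining marker Myh11 had 6 reads over SRC3 and 0 over FRC1 and PAR, and Cnn1 had 0, 1 and 3 reads over SRC3, FRC1 and PAR. The 9 fibroblast markers summed to 276.2 to 301.8 CPM in SRC3, 285.2 to 400 in FRC1 and 558.2 to 587.8 in PAR, with Lum and Tcf21 at 0. Col3a1 made up most of that sum, at 279.1 ± 14.8 CPM in SRC3, 332.7 ± 57.4 in FRC1 and 561.1 ± 15.9 in PAR, while Pdgfra stood at 4.343 ± 0.576, 3.024 ± 0.494 and 4.551 ± 0.668 CPM and Col1a1, Col1a2 and Dcn averaged at most 0.5305 CPM in any group. Endothelial markers, 5 in all, reached at most 0.5599 CPM in a library. The 6 macrophage markers summed to 7.251 to 7.7 CPM in SRC3, 6.158 to 6.913 in FRC1 and 6.112 to 6.441 in PAR, with Adgre1 at 0. Glial markers, 5 in all, summed to 14.96 to 31.16 CPM in SRC3, 1.959 to 2.352 in FRC1 and 1.608 to 2.416 in PAR, with Sox10 and S100b at 0. Ngfr, at 19.43 ± 8.09 CPM in SRC3, 0.1263 ± 0.219 in FRC1 and 0.696 ± 0.139 in PAR, made up most of the SRC3 sum. The 5 adipocyte markers summed to 7.373 to 10.71 CPM in SRC3, 4.168 to 6.228 in FRC1 and 3.482 to 3.522 in PAR, with Plin1 at 0. The part of these differences in the results above was not tested.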

How the data were processed

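The deposited files hold whole-number counts of reads per gene for 9 libraries, left unnormalized by the authors. Tools named in the submitters' processing notes are HTSeq 0.9.1, HISAT2 2.1.0 and DESeq2, with build GRCm38. Per the labels' design text, RNA of RIN 10 went into stranded TruSeq mRNA libraries, sequenced with 50 cycles from one end on a HiSeq 2500. The sources used here give no alignment or counting settings, strand included. The 5 summary lines of each file stayed out of all totals: among uniquely aligned reads, those outside genes made up 5.92 to 7.92%, and ambiguous reads 1.18 to 1.21%. Reads with several alignments were tallied apart.

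Groups came from the sample titles. Genes were kept with filterByExpr (minimum count 10, minimum total 15), scaled by TMM (factors 0.9938 to 1.012) and fitted over all 9 libraries with edgeR 4.0.16 in R 4.3.3 (robust quasi-likelihood, 6 residual degrees of freedom). Each SE is the size of the log2 fold change divided by the square root of the F value of its test. The 95% intervals of fold changes take this SE with those 6 degrees of freedom. The p-values use edgeR's own degrees of freedom, so intervals and p-values need not match. Read ratios have exact conditional binomial intervals. CPM, log2 CPM (prior count 2) and RPKM (union of GENCODE M21 exons, GRCm38) were computed from the deposited counts; 47224 of 47729 genes matched that annotation by identifier. Motifs were searched on both strands in RefSeq promoters.

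The 10 genes and the lists were chosen with earlier results of these data known. Genes named from a list were among its 3 largest rises or falls in a comparison, had passed the test, and were genes whose higher group averaged 1 CPM or more; 1 such gene is not reported here. The 3 nearest genes needed a mean of 1 CPM. The pipeline was tested on simulated data. Alternatives were scaling by RLE or by library size only, no filter, a 5 CPM filter (3 libraries), limma voom (limma 3.58.1), DESeq2 1.42.0, only the groups compared, a replicate block, each library left out, a test against a 2-fold change, the longest transcript as length and a prior count of 0.5.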

Additional observations from a re-analysis of the deposited data

How the results depend on the processing

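Of the log2 fold changes of the 9 tested genes under all alternatives, 447 kept direction and side of the threshold, 15 kept direction and lost the call, and 6 turned sign. All 6 were Ttn, whose values lay near 0: with 1 library left out it ranged over -0.13 to 0.11 in FRC1 over PAR, -0.08 to 0.16 in SRC3 over PAR and -0.04 to 0.13 in SRC3 over FRC1. A test against a 2-fold change, a stricter question, left 54 genes in FRC1 over PAR (main count 3550), 419 in SRC3 over PAR (4758) and 415 in SRC3 over FRC1 (4199), and 3, 2 and 4 of the genes described. The 3 in FRC1 over PAR were Actn2, Tcap and Klhl41, which reached the count filter only through FRC1, a selection that favoured a higher level there. Actn2 and Tcap were also among the 4 in SRC3 over FRC1, beside Ldb3 and Myom2. The 2 in SRC3 over PAR were Myom2 and Smyd1. Ldb3, Myom2 and Smyd1 passed the count filter with any group left out. A filter of 5 CPM in 3 libraries left 4 of the 10 to be tested and called 3 in FRC1 over PAR and 3 in SRC3 over FRC1. With 1 library left out, the genes called in FRC1 over PAR numbered 2327 to 3987, the lowest without FRC1 replicate 3, and 8 of the genes described were called each time; they numbered 3 to 4 in SRC3 over PAR and 7 to 8 in SRC3 over FRC1. With no filter on low counts, 11 of 16 M band, 11 of 22 assembly and 6 of 14 intermediate filament genes were called in FRC1 over PAR. With the filter these were 7 of 10, 5 of 19 and 3 of 12. Of all genes, 3693 of 22254 were called with no filter and 3550 of 12540 with it. With the replicate number as a block, 3560, 4798 and 4221 genes were called in FRC1 over PAR, SRC3 over PAR and SRC3 over FRC1, and the counts of the 10 were 8, 4 and 8 as without it. Same-numbered samples correlated in their deviations from group means at -0.07 to 0.118, with 1 of 9 pairs above 0.1, so the numbers were not taken as pairs; 14 of 18 best matches between samples of 2 groups had the same number, a hint from the data and not the design. Depth limits Mypn, and Tcap and Actn2 outside FRC1, most.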
